A study of Mus musculus with 3 samples.

Results

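Glutathione and thioredoxin are the main thiol systems with which cells reduce peroxides and oxidized proteins. The genes of these systems were picked by name from the probes of 3 mouse oligonucleotide arrays. The names taken were those of the glutathione S-transferases (Gsta, Gstk, Gstm, Gsto, Gstp and Gstt), the microsomal transferases (Mgst), the glutathione peroxidases (Gpx), the peroxiredoxins (Prdx), every name that begins with Txn, the enzymes of glutathione synthesis and reduction (Gclc, Gclm, Gss and Gsr), the superoxide dismutases (Sod) and catalase (Cat). The match was by name alone. It found 62 of 23473 probes, each for a different gene, of which 51 carry a current symbol and 11 an older one in the gene table used for names.

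Each array measured RNA of C2C12 cells, an established mouse myoblast line derived from C3H mice. Parental cells kept for 2 days in DMEM with 10% fetal bovine serum, in which they proliferate, gave C2C12-PR, and C2C12-DF was the same line after 2 days in DMEM with 2% horse serum, in which the cells differentiate into myotubes. C2C12-W4-08 was a cloned stable transfectant that carries V5-tagged Wnt4 under the CMV promoter with a blasticidin resistance gene, and it was kept for 2 days in the 10% serum medium. It is 1 clone set against an untransfected parent, and its array belonged to a separate order, so that clone, selection, array order and Wnt4 cannot be told apart. With 1 array per condition there was no replicate, no error could be estimated and no test was made. A ratio of at least 2 is used as a mark of size, and the number of arrays limits the precision of every value.

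The signal is the spot brightness minus the mean of the blank spots, scaled so that the median probe has a ratio of 1 to C2C12-PR. All ratios are therefore relative to the median probe. In the authors' deposited table of processed signals, taken without that scaling, the median log2 ratio of all probes is 0.14 in C2C12-DF and 0.57 in C2C12-W4-08. Signals are given in the order C2C12-PR, C2C12-DF, C2C12-W4-08, and paired log2 ratios with that of C2C12-DF first. A probe counted as detected where its spot reached the blank mean plus 2 SD. The lowest detected signals were 2.72, 2.35 and 0.697, since blank spots varied less in C2C12-W4-08. The SDs of the blank spots were 2.95, 2.16 and 0.803 scanner units. All 7 myoblast markers were detected on the 3 arrays, with a summed signal from 11744 to 16612, most of which was vimentin, Vim, at 12673, 10826 and 9868. Several muscle markers were lower in C2C12-W4-08 than in C2C12-PR, with Cdh15 at 93.8 against 704.0, Itga7 at 234.2 against 758.9 and Myod1 at 74.4 against 206.5, while Myf5 was at 116.6 against 60.9. The part of this difference in the ratios of the members was not tested. The 5 myotube markers summed to 11053 in C2C12-DF, against 240.4 in C2C12-PR and 281 in C2C12-W4-08, so the myotube genes stood low in the Wnt4 line. Markers of adipocytes, osteoblasts, leukocytes, epithelium and endothelium had a signal of at most 6.30 on any array. Wnt4 itself had a signal of 115 in C2C12-W4-08 and was below detection in C2C12-PR, a ratio of at least 42.2. Positive control spots, with 24 copies of each control, did not sit at the median probe in C2C12-W4-08. There Positive Control 1, with a signal of 83.6 in C2C12-PR, had a median log2 ratio of 1.26, and the bright Positive Controls 2 and 3 had -0.54 and -0.75. In C2C12-DF the medians of the 3 controls were 0.23, 0.12 and 0.14. In bulk RNA, fewer cells of a kind and less RNA per cell cannot be told apart.

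The members play distinct parts. Glutamate-cysteine ligase, made of the catalytic subunit Gclc and the modifier Gclm, performs the step that limits glutathione synthesis, and Gss adds glycine. The peroxidases and transferases use glutathione to reduce peroxides or to tag reactive compounds, and Gsr returns oxidized glutathione to the reduced form with NADPH. Peroxiredoxins reduce hydrogen peroxide and are mostly recycled by thioredoxin, which thioredoxin reductase recycles in turn, again with NADPH. Many of these genes are known targets of the transcription factor Nrf2, which binds the antioxidant response element, whose core is TGACNNNGC. Contracting muscle produces oxidants steadily, and these systems are part of its defence.

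Of the 62 members, C2C12-PR detected 49 (79.0%), C2C12-DF 53 (85.5%) and C2C12-W4-08 59 (95.2%). Over all probes the shares were 71.8%, 74.4% and 92.8%. A total of 48 members were detected on all 3 arrays, 6 on 2 of them, 5 on 1 and 3 on none. In C2C12-DF, 48 members could be compared, of which 2 were higher than in C2C12-PR by 2-fold or more and 3 were lower. These are 4.17% and 6.25% of the members compared, beside 4.91% and 4.54% of the 15918 probes detected on both arrays, so the shares lie near those of all probes. Their median log2 ratio was -0.13, with 21 above 0 and 27 below. In C2C12-W4-08, 49 members could be compared, of which 7 (14.3%) were higher by that margin and 2 (4.08%) lower, beside 8.55% and 11.0% of 16682 probes. Their median log2 ratio was 0.16, with 28 above 0 and 21 below. Detected members were brighter than all detected probes, with median signals of 114.9 against 25 in C2C12-PR and 109.3 against 13.2 in C2C12-W4-08. With signals of at least 20 on both arrays, 6 of 39 members were higher in C2C12-W4-08 and 0 lower. The shares of 8544 such probes were 5.54% and 5.77%. In C2C12-DF, 2 of 40 were then higher and 2 lower, beside 3.50% and 3.58% of 8676 probes. Both comparisons use the same C2C12-PR array, and a gene's pair of ratios is therefore not independent.

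**Figure D1:**
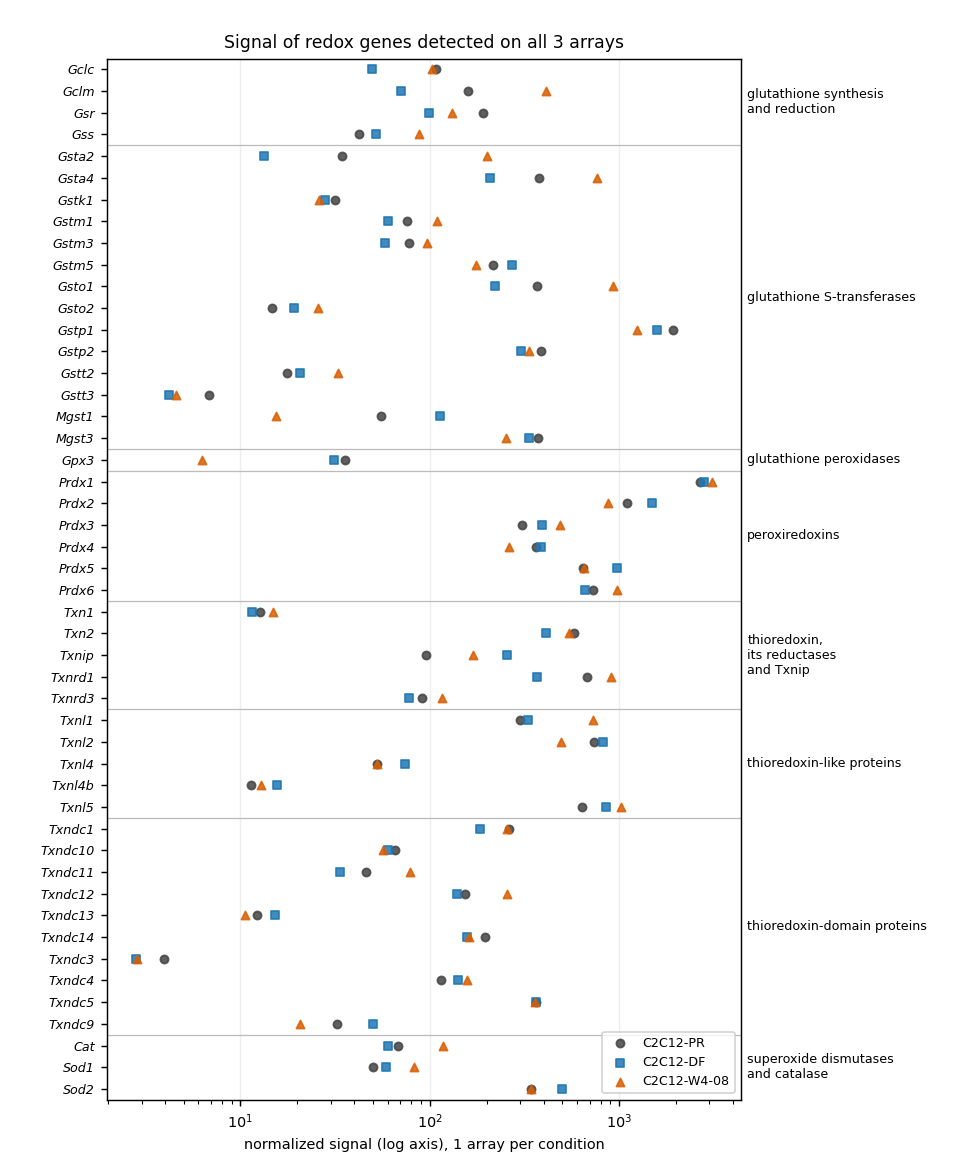
Normalized signal (log axis) of the 48 members detected on all 3 arrays, grouped by role, with 1 point for each array and no error bars, since each condition had 1 array. Gclm, Gsta2, Gsta4 and Gsto1 show C2C12-DF to the left and C2C12-W4-08 to the right of C2C12-PR, while Mgst1 shows the reverse order.

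The enzymes of glutathione synthesis and reduction did not move as a block. With the reported processing, only the modifier subunit passed 2-fold on both arrays. Gclm had signals of 159.9, 70.4 and 410.5. It was thus lowest under low serum and highest in the Wnt4 line, with log2 ratios of -1.18 and 1.36. The catalytic subunit Gclc had 107.5, 49.4 and 103.2, a log2 ratio of -1.12 in C2C12-DF, where it was 2.18-fold lower, and -0.058 in C2C12-W4-08. Both subunits were thus lower in C2C12-DF. In C2C12-W4-08, with the reported processing, the modifier was 2.57-fold higher and the catalytic subunit close to the median probe. Gss, the synthetase that completes glutathione, had 42.3, 52.1 and 88.2, with log2 ratios of 0.30 and 1.06. The reductase Gsr had 192.1, 99.6 and 130.8, with ratios of -0.95 and -0.55, short of 2-fold on both arrays. Of these 4 genes, 2 were 2-fold lower in C2C12-DF and none higher (median -1.03), and 2 were 2-fold higher in C2C12-W4-08 and none lower (median 0.50, but -0.058 over the 3 genes whose signals reached 100 on the pair of arrays).

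The Gclm ratio in C2C12-DF stayed past 2-fold under all 11 settings run for it, between -1.35 and -1.11. Among these, no detection rule and a minimum signal of 20 could not change the ratio. A minimum signal of 100 gave no value. The other calls of this group were less firm. Under normexp, which models and removes the background around each spot before an offset of 50 is added, the Gclm ratio in C2C12-W4-08 was 0.50, that of Gss 0.61 and the Gclc ratio in C2C12-DF -0.93. Once each of the 48 print blocks was centred, Gss was at 0.64 and Gclc at -0.93. In the deposited table of processed signals Gss was at 0.997 when scaled, and Gclc in C2C12-DF at -0.90 when not. The contrast of the subunits in C2C12-W4-08 also depended on the setting. With the local background subtracted, Gclc was there at 0.66 and Gclm at 1.05, and after normexp Gclc was at 0.17. Gclc was at 0.37 there with print blocks centred. Gsr in C2C12-W4-08 turned to 0.33 with the local background subtracted.

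The promoters of the members were searched for the core of the antioxidant response element, since several of the genes that passed 2-fold are known Nrf2 targets. The letters TGACNNNGC were sought on both strands of the RefSeq windows of build GRCm38.p6, which run from 250 bases before to 50 bases after each annotated start. Of 53 member genes with a window, 13 (24.5%) held a match in at least 1 of their windows, beside 3781 of 27025 genes (14.0%). Counted by window, it was 13 of 67 (19.4%) among members and 4071 of 32851 (12.4%) overall. Shown are the matches of Gclm and Mgst1, which passed 2-fold on both arrays in opposite orders with the reported processing. Also shown are those of Txnrd1, Prdx1 and Sod1, core enzymes of their families that stayed within 2-fold with it. Each line is read along the gene's own strand with the match in capitals.
Gclm: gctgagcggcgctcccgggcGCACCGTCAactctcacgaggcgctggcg
Mgst1: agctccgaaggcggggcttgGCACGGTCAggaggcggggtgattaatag
Txnrd1: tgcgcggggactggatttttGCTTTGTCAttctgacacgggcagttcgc
Prdx1: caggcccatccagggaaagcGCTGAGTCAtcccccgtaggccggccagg
Sod1: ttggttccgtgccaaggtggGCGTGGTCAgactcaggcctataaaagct
All 5 matches lie on the strand opposite to the gene. The windows shown are chr3:122245403-122245451 for Gclm, chr6:138140451-138140499 for Mgst1, chr10:82859094-82859142 for Txnrd1, chr4:116685446-116685494 for Prdx1 and chr16:90220686-90220734 for Sod1, each on the plus strand of the chromosome. Of the other genes past 2-fold, Gsta3 held a match, and Gss, Gsta2, Gsto1, Gpx3 and Txnip held none in their windows, and Gclc, Gsta4 and Txnl1 were not searched. Txnrd1 had 3 annotated starts and Mgst1 had 2, with a match in 1 window each. No other motif was searched. A match is only a run of letters and does not show that a factor binds there.

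In C2C12-W4-08 the glutathione S-transferases held the widest spread of any family with more than 1 gene compared, with log2 ratios from -1.86 to 2.54 and an SD of 1.07. Gsta2, of the alpha class that conjugates glutathione to reactive compounds, had signals of 34.5, 13.3 and 200.6. It was 2.59-fold lower in C2C12-DF and 5.82-fold higher in C2C12-W4-08, where its ratio ranked 52 from the top of 16682 probes. In C2C12-DF its log2 ratio was -0.72 after normexp. Gsta4, which detoxifies lipid aldehydes such as 4-hydroxynonenal, had 379.4, 207.9 and 771.1, with log2 ratios of -0.87 and 1.02. Gsto1, of the omega class, which reduces dehydroascorbate and mixed disulfides, had 371.5, 221.6 and 927.1, with log2 ratios of -0.75 and 1.32, and it passed 2-fold in C2C12-DF after normexp, at -1.19, and with the local background, at -1.04. These genes were each lowest in C2C12-DF and highest in C2C12-W4-08. Gsta3 was below detection in C2C12-DF, and its 3.14 in C2C12-PR against 7.16 in C2C12-W4-08 made a log2 ratio of 1.19 so near the lowest detected signals that 1 scanner unit, worth 0.413 in C2C12-PR, weighs on it.

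Mgst1, a membrane-bound transferase of the endoplasmic reticulum and the outer mitochondrial membrane, ran in the opposite order. Its signals were 55.5, 113.3 and 15.3, so it was 2.04-fold higher in C2C12-DF and 3.62-fold lower in C2C12-W4-08. After normexp its log2 ratios were 0.57 and -0.83, both short of 2-fold. With print blocks centred its ratio in C2C12-DF was 0.957. Mgst3, its relative with activity toward lipid hydroperoxides, had 372.8, 333.9 and 254.5 and stayed within 2-fold, at -0.16 and -0.55. Membrane-bound transferases thus did not move alike in C2C12-DF.

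The other transferases stayed within 2-fold on both arrays. The mu class genes Gstm1, Gstm3 and Gstm5 ran from -0.43 to 0.34 in C2C12-DF and from -0.30 to 0.52 in C2C12-W4-08. The pi class genes Gstp1 and Gstp2 were below 0 in both, with Gstp1 at -0.28 and -0.63 and signals of 1931, 1593 and 1247. Gstk1, the kappa enzyme of mitochondria and peroxisomes, was at -0.18 and -0.27. Gsto2, Gstt2 and Gstt3 were at 0.39, 0.23 and -0.71 in C2C12-DF and at 0.81, 0.89 and -0.58 in C2C12-W4-08. Transferases of 1 class are similar in sequence, and how far their probes cross-hybridize was not tested. The median over the family was -0.31 for 14 genes in C2C12-DF and 0.30 for 15 in C2C12-W4-08. It was 0.021 in C2C12-DF in the deposited table without scaling, and in C2C12-W4-08 -0.0079 after normexp and -0.26 over genes with a signal of at least 100.

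The local background, read from the ring around each spot, was high around several of these spots in C2C12-W4-08. Around Gsta4 it was 946 scanner units beside a spot of 1794, against 84 beside 940 in C2C12-PR. Around Gsto1 it was 987 beside 2156, against 46 beside 921, and around Gclm 443 beside 957, against 49 beside 408. Around Gsta2 it was 45 beside 470, so this probe does not share that feature. When the local background was subtracted in place of the blank mean, Gsta4 was at 0.52, Gsto1 at 0.95 and Gclm at 1.05, and Gsta2 at 2.94. After normexp the first 2 were at 0.021 and 0.43, while Gsta2 stood at 1.90 and was past 2-fold under all 11 settings run for it. Of these settings, no detection rule and a minimum signal of 20 could not change its ratio. In the scaled deposited table Gsta4 was at 0.94.

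**Figure D2:**
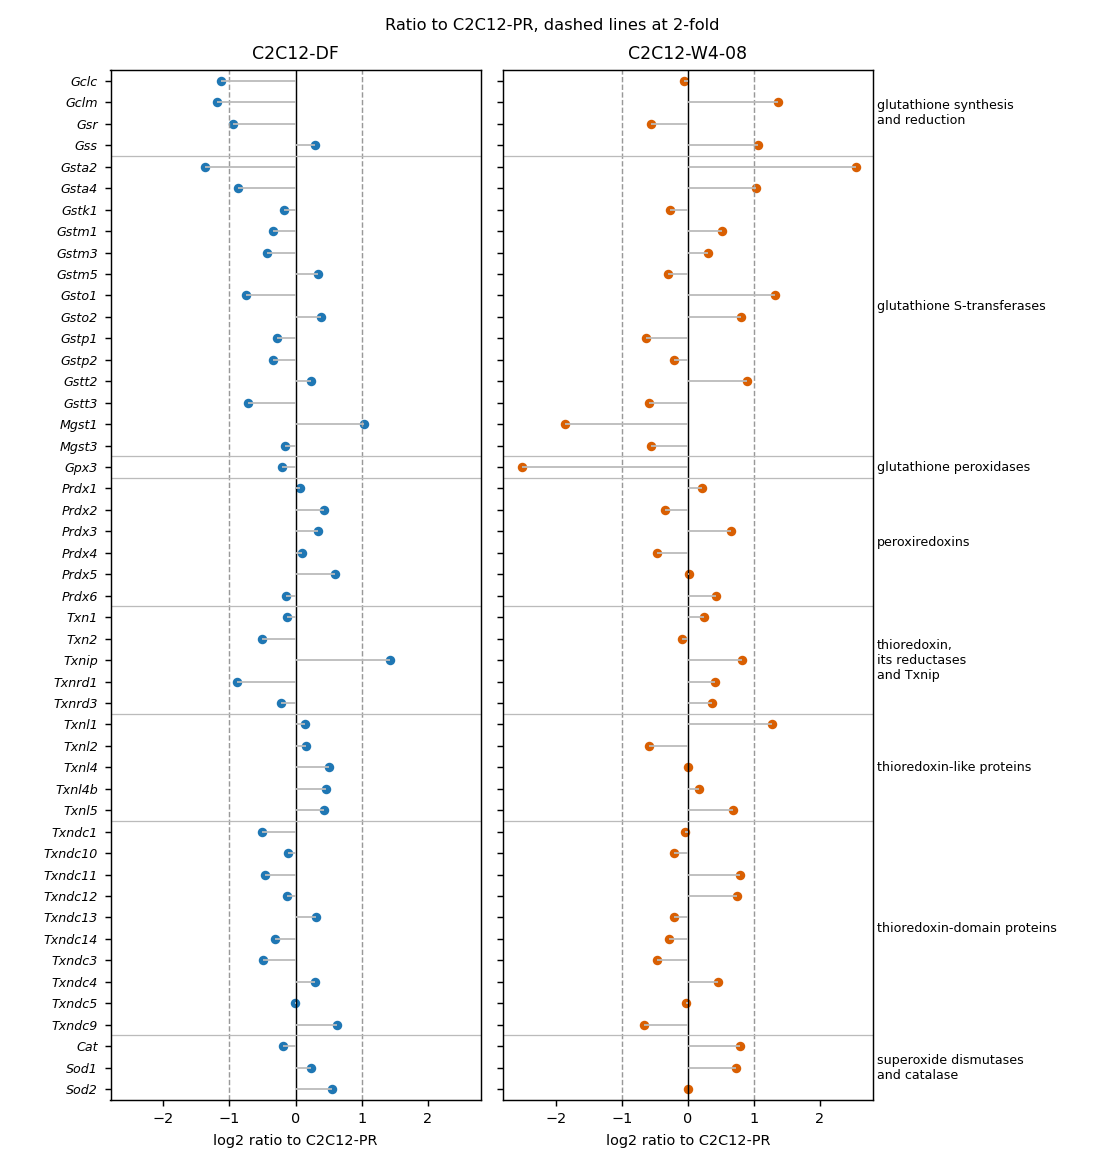
Log2 ratio to C2C12-PR of the same 48 members in C2C12-DF and in C2C12-W4-08, as points with a line from 0, and dashed lines at 2-fold. In C2C12-DF most points lie within the dashed lines, with Gsta2, Gclm and Gclc beyond the left line and Txnip and Mgst1 beyond the right one. In C2C12-W4-08 Gsta2 at 2.54 and Gpx3 at -2.50 lie furthest out.

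Of the glutathione peroxidases, which use glutathione to reduce hydrogen and lipid peroxides, only Gpx3 was detected on all 3 arrays. Gpx3, the secreted form, had signals of 35.7, 31.1 and 6.30. The parental arrays were close, at a log2 ratio of -0.20, and the Wnt4 line was 5.67-fold lower. After normexp the ratio in C2C12-W4-08 was -0.69. The probes of Gpx1, the widespread cytosolic form, and of the gut form Gpx2 were detected only in C2C12-W4-08, at 0.697 and 3.28, below or near what could be detected in C2C12-PR. The epididymal and olfactory forms Gpx5 and Gpx6 had signals between 1.56 and 4.14 where detected, and Gpx7, a form of the endoplasmic reticulum, was detected on no array. No probe carried the name Gpx4, Txnrd2 or Sod3.

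The peroxiredoxins stayed within 2-fold on both arrays for all 6 genes detected. Prdx1, a cytosolic peroxiredoxin, had signals of 2694, 2826 and 3115, with log2 ratios of 0.069 and 0.21. Prdx2, also cytosolic, had 1110, 1499 and 877.5, with ratios of 0.43 and -0.34. Prdx5, found in mitochondria, peroxisomes and cytosol, had 644.6, 974.7 and 653.9, the largest ratio of the family in C2C12-DF at 0.60. The mitochondrial Prdx3 had 309.2, 391.5 and 486.3, the largest in C2C12-W4-08 at 0.65, which was 0.16 with print blocks centred and 1.53 with the local background subtracted. Prdx4, of the endoplasmic reticulum, was at 0.095 and -0.47, and Prdx6, which uses glutathione as its reductant, was at -0.14 and 0.43. The median was 0.22 in C2C12-DF, -0.082 after normexp, and 0.12 in C2C12-W4-08. Prdx2 spots had local backgrounds of 1466 scanner units in C2C12-PR and 115 in C2C12-W4-08, and when local backgrounds were subtracted its ratios were 1.02 and 1.16. Prdx4 was at -1.27 in C2C12-W4-08 after normexp, so the family was within 2-fold with the reported processing but not under every setting.

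In the thioredoxin system the inhibitor stood apart from the enzymes in C2C12-DF. Txnip, which binds reduced thioredoxin and also limits glucose uptake, had signals of 96.0, 257.2 and 168.7. It was higher than in C2C12-PR on both other arrays, with log2 ratios of 1.42 and 0.81. In C2C12-DF it was 2.68-fold higher and ranked 353 from the top of 15918 probes, and the ratio was 0.64 after normexp. Txnrd1, the cytosolic reductase, had 681.3, 369.1 and 903.8, with ratios of -0.88 and 0.41, short of 2-fold on both, although normexp placed it at -1.16 in C2C12-DF and quantile normalization just past 2-fold. The mitochondrial thioredoxin Txn2 had 581.1, 410.7 and 545.8, at -0.50 and -0.090, and with the local background subtracted these turned to 0.54 and 1.60. The Txn2 spot lay beside a local background of 867 scanner units of 1429 in C2C12-PR and 93 of 1271 in C2C12-W4-08. The cytosolic thioredoxin Txn1 had only 12.6, 11.5 and 14.9, at -0.14 and 0.24. Txnrd3, which reduces both thioredoxin and glutathione, was at -0.21 and 0.36.

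Names that begin with Txnl belong to proteins that share the thioredoxin fold and differ in role. Txnl1, which associates with the proteasome, had signals of 301.4, 331.6 and 726.7, a ratio of 2.41 in C2C12-W4-08 where the parental arrays stood close together. Its log2 ratio of 1.27 was 0.98 with print blocks centred and 0.67 after normexp. Txnl5, now Txndc17, a small cytosolic disulfide reductase, had 636.4, 856.4 and 1024, at 0.43 and 0.69. Txnl2, now Glrx3, a glutaredoxin of iron-sulfur metabolism, had 741.6, 826.7 and 494.0, at 0.16 and -0.59. Txnl4, now Txnl4a, a splicing factor, and Txnl4b were at 0.50 and 0.45 in C2C12-DF and at 0.0053 and 0.16 in C2C12-W4-08. All 5 genes compared were above 0 in C2C12-DF, with a median of 0.43 and none past 2-fold, although Txnl1 was at -0.20 after normexp.

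The Txndc genes, most of which encode disulfide isomerases or membrane proteins of the endoplasmic reticulum, stayed close to the median probe. None of the 10 compared passed 2-fold on either array, with ranges from -0.51 to 0.63 in C2C12-DF and from -0.66 to 0.78 in C2C12-W4-08. Txndc5, an isomerase, had 366.2, 363.2 and 360.0, the closest to the median probe on both arrays together, at -0.012 and -0.024. Txndc4, now Erp44, which holds client proteins back in the early secretory pathway, was at 0.29 and 0.45. Txndc11 and Txndc12, both of the endoplasmic reticulum, were at -0.46 and -0.13 in C2C12-DF and at 0.78 and 0.74 in C2C12-W4-08. Txndc9, which regulates the folding of actin and tubulin, ran the other way, with 32.4, 50.3 and 20.5 and ratios of 0.63 and -0.66. Txndc1, Txndc10, Txndc13 and Txndc14, now Tmx1, Tmx3, Tmx4 and Tmx2, ran from -0.51 to 0.31 and from -0.28 to -0.041. Txndc3, now Nme8, had at most 3.96, and Txndc2 and Txndc8, thioredoxins of sperm, had at most 4.14 or were not detected.

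Catalase and the superoxide dismutases, which act before and beside the thiol systems, were within 2-fold on both arrays with the reported processing. Sod2, the mitochondrial dismutase, had 341.8, 500.6 and 343.2, with log2 ratios of 0.55 and 0.0060. Sod1, the cytosolic form, had 50.2, 59.0 and 83.0, with 0.23 and 0.73. Catalase, the peroxisomal enzyme, had 68.3, 59.9 and 118.3, with -0.19 and 0.79. Sod1 was above 0 on both arrays, catalase in C2C12-W4-08, and Sod2 was above 0 in C2C12-DF, at -0.066 there after normexp, and close to 0 in C2C12-W4-08.

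The 14 members not detected on all 3 arrays had signals of at most 7.16. Beside the peroxidases other than Gpx3, Gsta3, Txndc2 and Txndc8 they included the transferase genes Gstm2, Gstm4, Gstm7 and Gstt1 and also Txnl6, now Nxnl1, which was not detected on any array. In C2C12-DF, 5 were detected there and not in C2C12-PR, and 1, Gsta3, was detected in C2C12-PR and not in C2C12-DF. The ratio is then only a bound, and the highest was 1.37, for Gpx6. None reached 2-fold, beside 9.83% of the 1536 probes detected only in C2C12-DF and 10.9% of the 941 detected only in C2C12-PR. In C2C12-W4-08, 10 members were detected there and not in C2C12-PR, with bounds of at most 1.52, and none reached 2-fold, beside 5.57% of 5101 such probes.

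Lists of genes around the thiol systems gave context for the members. Beside their counts stand the shares of all probes, 4.91% higher and 4.54% lower in C2C12-DF, against 8.55% and 11.0% in C2C12-W4-08. Of 20 genes for Nrf2, its partners and its targets that are not members, Nfe2l2, the gene of Nrf2 itself, had signals of 189.6, 248.5 and 229.5, with log2 ratios of 0.39 and 0.28. Keap1, which marks Nrf2 for degradation, was at 0.12 and -0.92. In C2C12-DF, 4 of 19 compared were 2-fold lower and 1 was higher, and in C2C12-W4-08 4 of 20 were higher and none lower. Slc7a11, the light chain of the cystine transporter, was below detection in C2C12-DF and at least 2.04-fold lower there. The quinone reductase gene Nqo1 had 48.5, 18.8 and 167.9, so it was lowest in C2C12-DF and highest in C2C12-W4-08, at -1.37 and 1.79. Srxn1, which restores overoxidized peroxiredoxins, had 197.0, 50.3 and 252.3, at -1.97 and 0.36. The heme oxygenase gene Hmox1 had 110.0, 85.5 and 368.2, at -0.36 and 1.74, and the repressor Bach1 was higher on both arrays, at 1.35 and 1.79. After normexp Nqo1 was at -0.76 and 0.83 and Hmox1 was at 0.48 in C2C12-W4-08, and Bach1 was at 0.29 and 0.30, whereas Srxn1 in C2C12-DF was past 2-fold under all 11 settings run for it. For Srxn1, no detection rule and a minimum signal of 20 could not change the ratio. The median of the list was -0.034 in C2C12-DF, where it was above 0 under 2 settings, and 0.39 in C2C12-W4-08, above 0 under all 12.

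Genes that supply NADPH, the reductant on which Gsr and the thioredoxin reductases depend, lay on both sides of the median probe in C2C12-DF. Of 14 compared, 4 were 2-fold lower, 1 was higher and the median was -0.57, below 0 under all 12 settings. Me3, a mitochondrial malic enzyme gene, was the higher one at 1.14, on dim signals of 5.61 in C2C12-PR and 12.4 in C2C12-DF. Nnt, Pgls and Idh1 were at 0.48, 0.39 and 0.21. The mitochondrial one-carbon genes Shmt2 and Mthfd2 were at -2.07 and -1.33 and the malic enzyme gene Me2 at -1.23. G6pdx, also past 2-fold, was at -1.16, and Pgd, short of it, at -0.97. On the C2C12-W4-08 array 1 passed 2-fold upward and 2 downward, with a median of -0.14 (0.39 in the unscaled table), Mthfd2 at 1.91, and the isocitrate dehydrogenase genes Idh1 and Idh2 at -1.01 and -1.29.

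Of the genes for cysteine supply and glutathione turnover, 1 of 22 was 2-fold higher and 2 were lower in C2C12-DF, and 6 of 23 were higher and 2 lower in C2C12-W4-08. As bounds, the dipeptidase gene Dpep1 was at least 3.04-fold higher and Cbs, which makes cystathionine, at least 2.04-fold lower in C2C12-DF, while the glutamyl transferase gene Ggt1 was at least 5.48-fold higher in C2C12-W4-08. Cth, which makes cysteine from cystathionine, stood at -2.32 and 3.91, and Slc3a2, the heavy chain of the cystine transporter, at 2.92 in C2C12-W4-08, where its signal was 980.5 against 129.4 in C2C12-PR. Anpep, an aminopeptidase that can act on the products of glutathione breakdown, was at 2.00 in C2C12-W4-08. In C2C12-DF the glutamine carrier gene Slc1a5 was at -1.67, and Csad, which turns cysteine toward taurine, at 1.36.

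The lists for other thiol proteins, oxidant sources and metal defence had members past 2-fold in both directions. Of 19 glutaredoxins, sulfoxide reductases and other thiol proteins, 1 was higher and 2 lower in C2C12-DF, and 1 higher and 3 lower in C2C12-W4-08. Of the lower genes in C2C12-DF, 1 was Srxn1, which the Nrf2 list also holds. Sesn1, a sestrin, was at 1.10 and the oxidase gene Ero1l at -1.29 in C2C12-DF, while C2C12-W4-08 had the isomerase gene Pdia4 at 1.23, nucleoredoxin, Nxn, at -1.26 and Msrb3 at -1.50, which turned to 0.18 after normexp. None of 8 selenoprotein genes passed 2-fold on either array. Of the sources of superoxide and peroxide, 2 of 10 were higher in C2C12-DF and 3 of 11 higher and 2 lower in C2C12-W4-08, with the lysyl oxidase gene Loxl1 at 1.15 and -2.17, Xdh at 1.98 and the monoamine oxidase gene Maoa at 1.83 in C2C12-W4-08. Xdh had signals of only 6.85 in C2C12-PR and 27.0 in C2C12-W4-08. After normexp Xdh was at 0.038 and Maoa at 0.43 in C2C12-W4-08. Of 15 genes for metal defence and related functions, 1 was higher in C2C12-DF and 4 were higher and 1 lower in C2C12-W4-08, with Ucp2, a mitochondrial carrier, at 1.08 and -2.42, the metallothionein gene Mt2 at 1.45 and Oxr1 at 1.30 in C2C12-W4-08. The median of that last list was 0.92 in C2C12-W4-08 and turned to -0.14 with the local background subtracted. Settings were compared for up to 3 genes per list and array, those past 2-fold with the largest ratios. Of these, Srxn1, Shmt2, Mthfd2 and Slc1a5 in C2C12-DF were past 2-fold under every setting that gave a value. So were Mthfd2, Cth, Slc3a2, Anpep and Loxl1 in C2C12-W4-08, and each of the others fell short under at least 1. Minimum signals and no detection rule could not change any of these ratios.

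**Figure D3:**
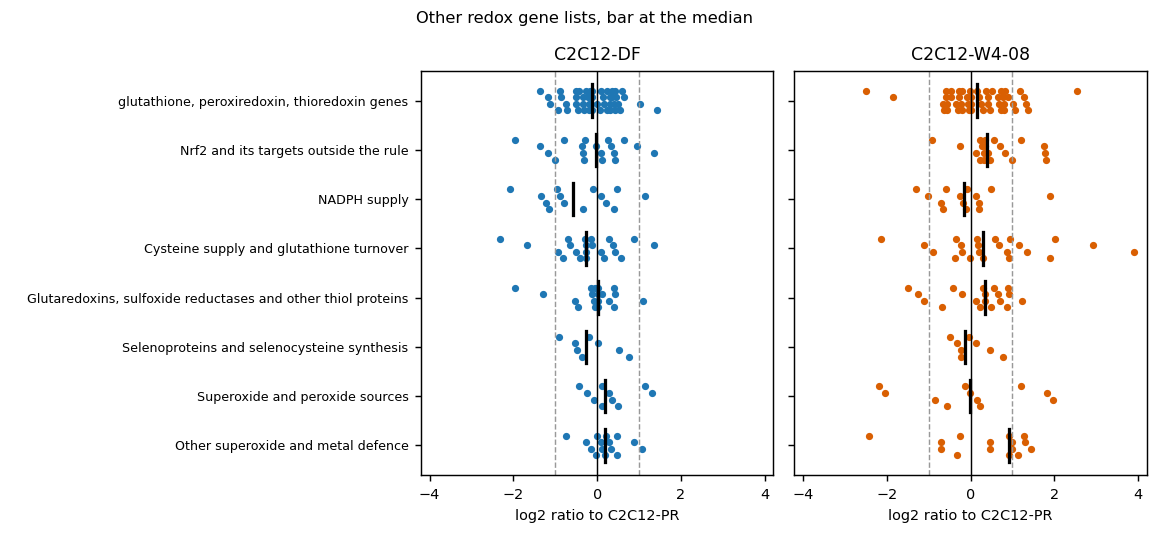
Log2 ratio to C2C12-PR of each gene detected on both arrays, for the members (top) and for 7 lists of other redox genes, with a bar at each median and dashed lines at 2-fold. The NADPH supply list has the lowest median in C2C12-DF, at -0.57, and the cysteine list holds the highest point in C2C12-W4-08, Cth at 3.91.

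**Figure D4:**
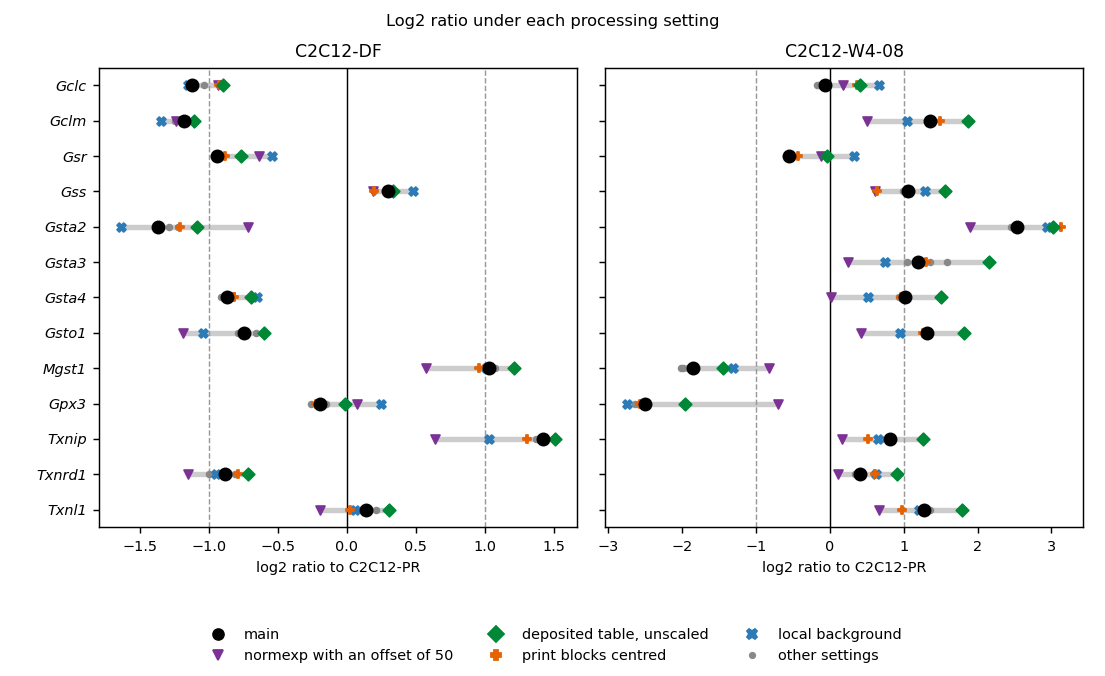
Log2 ratio to C2C12-PR of the members past 2-fold in either comparison, with Txnrd1 and Gsr, under each processing setting, where grey bars span all settings, large black points are the values reported and dashed lines mark 2-fold. Gclm in C2C12-DF and Gsta2 in C2C12-W4-08 stay beyond the 2-fold line under all settings shown, whereas Gsta4 in C2C12-W4-08 spans 0.021 to 1.51.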

How the data were processed

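Amplified RNA with a single dye was hybridized to 3 Toray 3D-Gene mouse arrays of 25392 spots, 1 per condition, named by their sample labels. The spot and background intensities were deposited by the authors as scanned, with no subtraction or scaling. Their second table, of processed signals with a median of 25.0 for each array, was an alternative, and its spot summary and background are not given in the sources used here. The background taken from each spot median was the mean of 1750 blank spots, and detection began at the blank mean plus 2 SD, after the array notes of the study. The median signal of C2C12-PR was fixed at 25, and the other arrays to a median probe ratio of 1 against it. A scanner unit was worth 0.413, 0.457 and 0.431 of signal in C2C12-PR, C2C12-DF and C2C12-W4-08, which limits dim ratios.

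No test was possible with 1 array per condition. Members and lists were chosen with earlier results of these data known. Named were members past 2-fold with a signal of at least 20 on 1 array of the pair, the core enzymes and, per list, up to 3 genes past 2-fold with the largest ratios. Some other list genes are also given, without values under the alternative settings. A list gene with several probes took the brightest, and list genes that are also members stayed out of their lists. Alternatives were normexp with an offset of 50, the local background, quantile, 75th percentile, loess and print-block normalization, the deposited table scaled or not, no detection rule (undetected signals at the lowest detected one), minimum signals of 20 and 100, the spot mean, other thresholds, each gene name once, and members without Txndc genes. For the other redox genes they were chosen after seeing the data. The ratio of a single gene detected on both arrays is unchanged or missing under a minimum signal or no detection rule. These settings could therefore not alter its call. For the spot mean, the median of the blank spots was the background. Steps were tested on simulated data. Normexp and loess came from limma 3.58.1 in R 4.3.3, other steps from numpy 2.4.6 and pandas 2.3.3 under Python 3.11.15. Gene names and promoter windows came from RefSeq, GRCm38.p6. The values of 1 member are not reported here.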

Additional observations from a re-analysis of the deposited data

How the results depend on the processing

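In C2C12-DF the reported counts were 2 members higher and 3 lower. They were 0 and 5 after normexp, beside 1.23% and 2.44% of all probes. With the local background they were 4 and 7, beside 6.77% and 8.04%. With a minimum signal of 100, where 23 members were left, they were 0 and 0, beside 2.96% and 2.42%. The counts were 4 and 8 at 1.5-fold, beside 13.7% and 13.6%, and 0 and 0 at 4-fold, beside 0.949% and 0.251%. The higher count was 1 with print blocks centred, beside 4.62%. The median of -0.13 was -0.012 with a minimum signal of 100 and 0.026 in the unscaled table. In C2C12-W4-08 the reported counts were 7 higher and 2 lower. The higher count was 2 after normexp, 4 with print blocks centred, 4 with a minimum signal of 100, 21 in the unscaled table, where 3 were lower, 16 at 1.5-fold and 1 at 4-fold. The lower count was 4 of 49 with the local background, beside 15.7%, and 4 of 58 in the scaled deposited table, beside 11.7%. It was 9 of 62 with no detection rule, beside 23.97%. With minimum signals of 20 and of 100 it was 0, beside 5.77% and 5.07%. It was 5 at 1.5-fold, beside 21.9%, and 1 at 4-fold, beside 2.33%. The median of 0.16 was 0.74 in the unscaled table, where all probes had 0.57, and -0.0071 after normexp and -0.0091 with a minimum signal of 100. The other values stayed within 1.5 times the count or within 1 SD of the log2 ratios of identical control spots, 0.12 for C2C12-DF and 0.35 for C2C12-W4-08. That SD is the spread within each control and leaves out the displacement of the controls from the median probe, which reached 1.26 in C2C12-W4-08. Of the values of single members under the alternatives, 426 lay within that SD and 134 beyond it. Part of the 426 was fixed in advance. A minimum signal or no detection rule leaves the ratio of a gene detected on both arrays unchanged or missing. The 75th percentile moves all ratios of an array by the same small amount. The 426 is therefore no measure of how firm the ratios are. No called member changed direction. Of the other redox genes named, Msrb3 in C2C12-W4-08 did, at 0.18 after normexp and 0.53 with the local background. The cause of these shifts was not tested. No paired analysis was possible because each condition had 1 array.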
